A study of Rattus norvegicus with 10 samples.

Results

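The genes described here handle or answer glucocorticoid hormones: the plasma carrier gene Serpina6, the steroid enzyme genes Hsd11b1 and Cyp17a1, the receptor gene Nr3c1, and the target genes Tat, Tsc22d3, Fkbp5, Sgk1 and Per1. They were read in 10 liver arrays of 10 Wistar Han rats (CRL:WI (Han), 6 to 8 weeks old), 5 given RG3487, a ligand of the alpha-7 nicotinic receptor, at 180 mg/kg by gavage and 5 given vehicle, deionized water, in the same 5 ml/kg volume. The samples are labelled 24 h after dosing, whereas the series text names 2 h. Liver pieces came from the left lateral lobe under pentobarbital anaesthesia. The sources used here give neither the sex nor the hour of sampling. Rats were caged in groups of 5, and if a cage held 1 treatment only, cage and treatment cannot be told apart. Every probe set that the platform annotation gives to 1 of these symbols alone was taken, which left 10 probe sets of 8 genes, of 9379 genes so represented on the array. Per1 had no such probe set and was not analysed here. The 9 genes were chosen by role, but also from group differences already computed on these arrays, so the differences between RG3487 and vehicle livers given for them below are a description without a test.

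Glucocorticoids, corticosterone in the rat, circulate largely bound to corticosteroid-binding globulin, the protein made by the liver from Serpina6. Inside the hepatocyte the enzyme encoded by Hsd11b1 regenerates active hormone from its inactive 11-keto form, and the hormone binds the receptor encoded by Nr3c1, which waits in a chaperone complex and then moves to the nucleus to switch genes on or off. Tat, Tsc22d3, Fkbp5, Sgk1 and Per1 are textbook genes induced in this way, and in liver the response feeds gluconeogenesis and amino acid breakdown.

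RefSeq promoter windows (build GRCr8) were at hand for 6 of the 9 genes, 11 windows in all, since Nr3c1, Tsc22d3 and Sgk1 have several start sites. The windows of Tat, Tsc22d3 and Sgk1 are shown because these are the 3 glucocorticoid targets whose signal differed most between animals of the same group. Each line gives the 250 bases before the start site, with CCAAT boxes (CCAAT, either strand) and TATA boxes (TATAAA, either strand) in capitals. The Tat window lies at chr19:54856354-54856603 on the plus strand, the Tsc22d3 window at chrX:109010035-109010284 and the Sgk1 window at chr1:24804832-24805081, both on the minus strand.
Tat: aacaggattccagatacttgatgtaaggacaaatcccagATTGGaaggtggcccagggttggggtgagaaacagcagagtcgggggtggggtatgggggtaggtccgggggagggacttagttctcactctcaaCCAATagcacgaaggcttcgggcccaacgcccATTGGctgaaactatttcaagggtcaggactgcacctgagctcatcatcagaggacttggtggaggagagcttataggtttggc
Tsc22d3: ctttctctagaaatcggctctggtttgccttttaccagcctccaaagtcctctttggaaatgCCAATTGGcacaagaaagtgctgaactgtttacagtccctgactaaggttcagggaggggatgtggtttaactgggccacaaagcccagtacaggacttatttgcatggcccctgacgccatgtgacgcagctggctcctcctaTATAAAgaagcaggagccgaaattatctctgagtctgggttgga
Sgk1: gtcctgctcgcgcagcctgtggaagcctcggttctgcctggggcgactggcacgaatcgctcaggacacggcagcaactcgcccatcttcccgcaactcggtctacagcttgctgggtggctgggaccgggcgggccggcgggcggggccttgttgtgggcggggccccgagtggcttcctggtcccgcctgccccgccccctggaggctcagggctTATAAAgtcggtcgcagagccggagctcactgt
The half-site of the glucocorticoid receptor, AGAACA on either strand, was in 0 of the 11 windows, against 17.5% of 33469 such windows of rat genes. The full response element, AGAACA then 3 bases of any kind then TGTTCT, was in 4 windows of the 33469 and in 0 of the 11. A TATA box was in 3 of the 11 windows, against 12.9% of all windows. The Tsc22d3 window shown holds a TATA box that begins 44 bases before the start site and the Sgk1 window one that begins 33 bases before it. Both genes also have windows without a TATA box, which are not shown. A CCAAT box was in 3 of the 11, against 34% of all windows, and the Tat window holds 3 of them. These counts describe letters within 250 bases of a start site and say nothing of sites farther away.

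Serpina6, the carrier gene, was lower in every RG3487 liver than in any vehicle liver. Its signal, an Affymetrix intensity on a linear scale, was 1202, 1502, 1092, 1601 and 913 in RG3487 rats 1 to 5, against 2969, 2727, 2913, 3096 and 2083 in vehicle rats 1 to 5. The groups did not overlap, although vehicle rat 5 was nearer to the RG3487 rats than the other vehicle rats were. Means were 1262 ± 286 in RG3487 livers and 2758 ± 399.8 in vehicle livers (SD, n = 5 each), a difference of -1.13 ± 0.15 (SE) on the scale of log2(signal + 16), or 2.19-fold lower. All log2 differences below are RG3487 minus vehicle on this scale, on which folds of weakly detected genes come out below the ratio of their mean signals.

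Hsd11b1, whose enzyme regenerates active glucocorticoid, had signals of 3561, 3042, 3714, 2140 and 3055 in RG3487 rats 1 to 5, against 4222, 4554, 4465, 4468 and 4866 in vehicle rats 1 to 5. All RG3487 rats lay below all vehicle rats, and RG3487 rat 4 was lowest. The means were 3102 ± 616 in RG3487 livers and 4515 ± 232 in vehicle livers (SD, n = 5 each), a log2 difference of -0.56 ± 0.12 (SE), or 1.48-fold lower. In bulk tissue, fewer cells of a type and less RNA per cell cannot be told apart, for this gene and for those that follow.

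Cyp17a1 encodes the 17-alpha-hydroxylase and 17,20-lyase, a step on the way to androgens and, in many mammals though not in the rat adrenal, to cortisol. Its signal was 166, 259, 208, 115 and 144 in RG3487 rats 1 to 5, against 836, 684, 799, 444 and 443 in vehicle rats 1 to 5. The groups did not overlap, and vehicle rats 4 and 5 were the lowest of their group. Means were 178 ± 56.4 in RG3487 livers and 641 ± 189 in vehicle livers (SD, n = 5 each), a log2 difference of -1.75 ± 0.22 (SE), or 3.37-fold lower. Ordered over 7727 genes from the most negative difference upwards, Cyp17a1 stood at 8, Serpina6 at 28 and Hsd11b1 at 181.

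**Figure D1:**
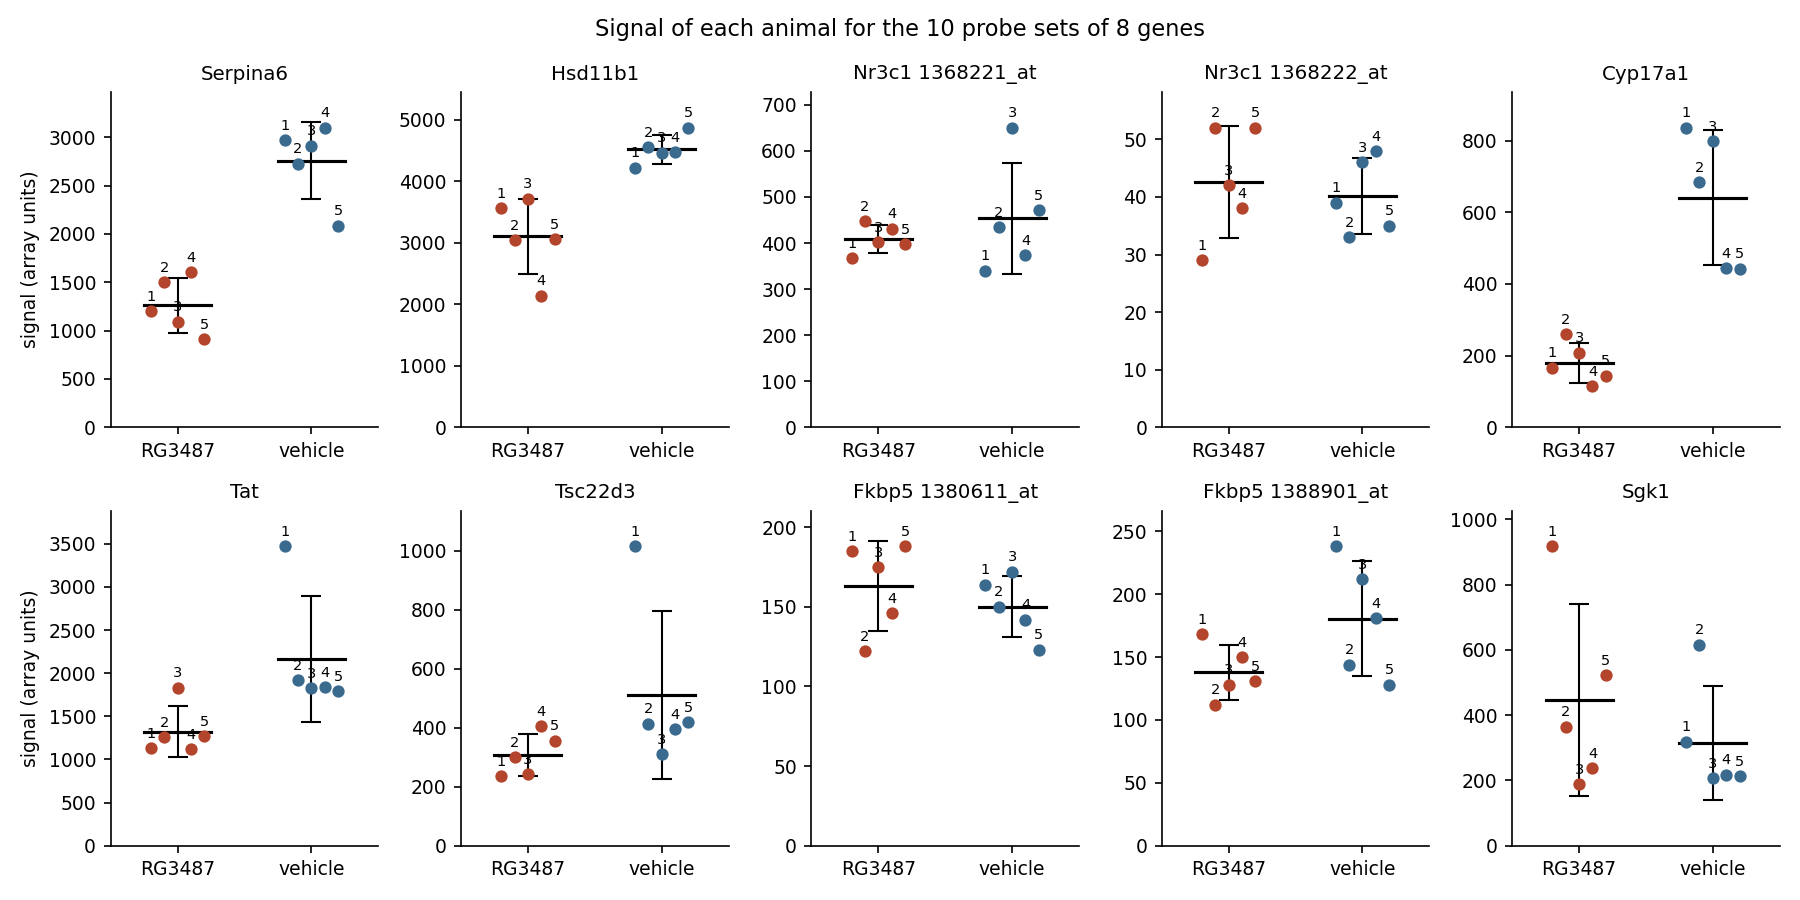
Signal of each animal (points, numbered as in the labels) for the 10 probe sets, RG3487 left and vehicle right, with the group mean (line) and SD (bar), n = 5 each; each panel has its own linear axis from 0. Serpina6, Hsd11b1 and Cyp17a1 show no overlap, and single vehicle rats stand high for Tat (3469) and Tsc22d3 (1014).

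Nr3c1, the glucocorticoid receptor gene, had 2 probe sets, neither with a group difference beyond its error. The first, 1368221_at, read 367, 447, 402, 431 and 398 in RG3487 rats 1 to 5, against 340, 434, 650, 373 and 471 in vehicle rats 1 to 5. The RG3487 values lay within the range of the vehicle values, and the log2 difference was -0.11 ± 0.14 (SE). The second, 1368222_at, was dim, with a mean of 42.6 ± 9.8 in RG3487 livers and 40.2 ± 6.6 in vehicle livers (SD, n = 5 each). Over all 10 arrays it only just passed the filter on dim probe sets, which began at a signal of 40.2. Its log2 difference was 0.05 ± 0.13.

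Among the targets, Tat, the aminotransferase that starts tyrosine breakdown and a classic hepatic glucocorticoid target, had signals of 1130, 1257, 1830, 1116 and 1267 in RG3487 rats 1 to 5, against 3469, 1918, 1823, 1840 and 1788 in vehicle rats 1 to 5. The groups overlapped through RG3487 rat 3 alone, while vehicle rat 1 stood far above the rest. The means were 1320 ± 294 in RG3487 livers and 2168 ± 729 in vehicle livers (SD, n = 5 each), and the log2 difference was -0.68 ± 0.18 (SE), or -0.50 without vehicle rat 1 and -0.80 without RG3487 rat 3. Tsc22d3, which encodes the anti-inflammatory leucine zipper protein GILZ, read 236, 299, 243, 404 and 355 in RG3487 rats 1 to 5, against 1014, 413, 309, 395 and 418 in vehicle rats 1 to 5. Vehicle rat 1 again stood apart, and the other vehicle rats overlapped the RG3487 rats. The log2 difference of -0.60 ± 0.26 (SE) shrank to -0.32 without vehicle rat 1.

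Fkbp5 encodes a co-chaperone that holds the receptor in a form with low hormone affinity, and its 2 probe sets did not point the same way. Probe set 1380611_at read 185, 122, 175, 146 and 188 in RG3487 rats 1 to 5, against 164, 150, 172, 142 and 123 in vehicle rats 1 to 5, a log2 difference of 0.10 ± 0.12 (SE). Probe set 1388901_at read 168, 112, 128, 150 and 131 in RG3487 rats 1 to 5, against 238, 144, 212, 181 and 128 in vehicle rats 1 to 5, a log2 difference of -0.33 ± 0.15. The groups overlapped on both, so the array gives no single direction for this gene. Neither was past the threshold as deposited, but 1380611_at went past it as higher with spike-in scaling, and 1388901_at as lower without vehicle rat 5 and with the rat number as a block. Sgk1, a kinase gene induced by glucocorticoids and by mineralocorticoids, read 917, 365, 188, 237 and 523 in RG3487 rats 1 to 5, against 318, 616, 207, 218 and 212 in vehicle rats 1 to 5. Both groups held high and low animals, and the log2 difference of 0.40 ± 0.39 (SE) became 0.09 without RG3487 rat 1 and 0.66 without vehicle rat 2.

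All 10 probe sets passed the filter that removed the dimmest 25% of probe sets. Counting each gene by its probe set with the highest mean, 4 of the 8 genes (Serpina6, Hsd11b1, Cyp17a1 and Tat) were among the genes past the threshold of an adjusted p under 0.05 in limma's fit over the whole array, all 4 lower, where 7.40% of 7727 genes were past it as lower and 22.3% as higher. With 1388901_at standing for it, Fkbp5 joined these 4 as lower without vehicle rat 5 and with the rat number as a block. The groups did not overlap, with RG3487 lower, in 3 of the 8, and in 4.78% of the 7727. Because the same differences were known when the genes were chosen, nothing is read from these counts.

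The difference between animals of one group is another measure than the group difference. Because limma's fit weighs one against the other, the choice of genes may still have drawn on it. It was wide for most of these genes. The within-group SD of log2(signal + 16) was 0.77 for Sgk1, larger than that of 99.5% of genes. It was 0.50 for Tsc22d3 (larger than in 98.5% of genes), 0.43 for Cyp17a1 (97.5%) and 0.35 for Tat (96.0%). Serpina6 (0.28, 92.1%) and Hsd11b1 (0.23, 83.6%) varied less, and the lowest of the 10 probe sets was Fkbp5 1380611_at (0.21, 79.5%). The targets did not all vary in the same animals. Vehicle rat 1 lay 1.10 above its group mean for Tsc22d3 and 0.73 above it for Tat, but 0.15 above it for Sgk1, for which vehicle rat 2 was the high animal, at 1.07. Among RG3487 rats, rat 1 was the highest for Sgk1 (1.23 above its group mean) and the lowest for Tsc22d3 (-0.33), and rat 3 was the highest for Tat (0.49) and the lowest for Sgk1 (-0.96).

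**Figure D2:**
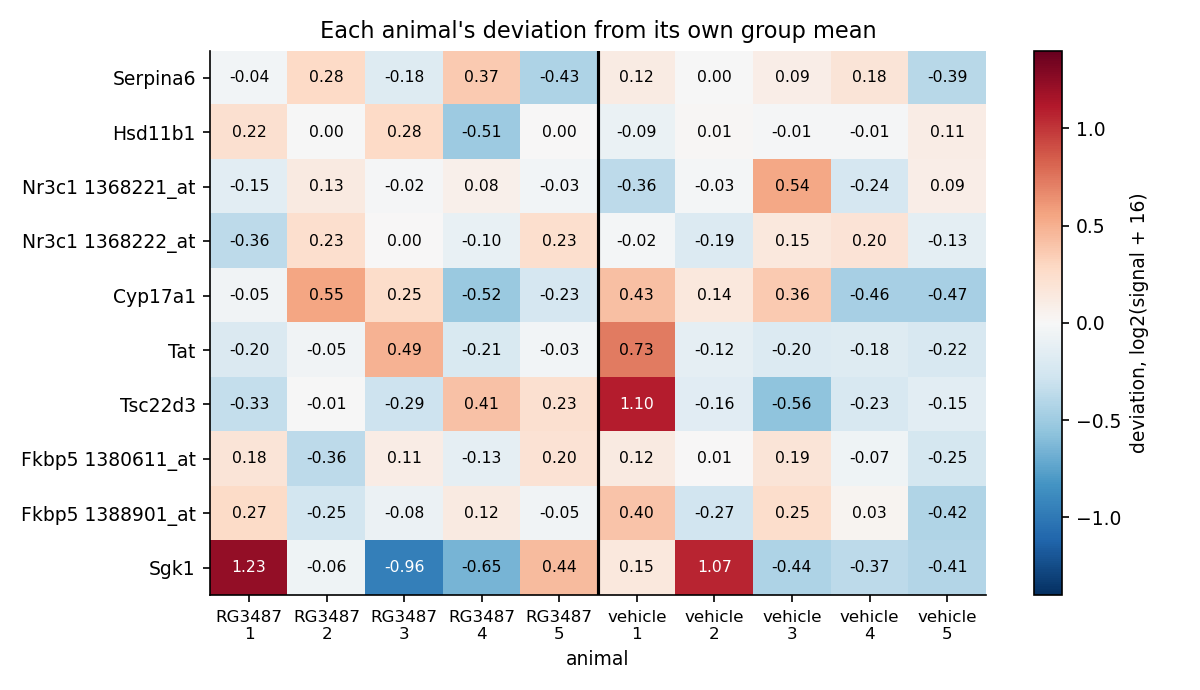
Deviation of each animal (columns, RG3487 left of the line) from the mean of its own group on the log2(signal + 16) scale, for the 10 probe sets (rows); red is above and blue below the group mean. Vehicle rat 1 is high for Tsc22d3 (1.10) and Tat (0.73), while Sgk1 is high in RG3487 rat 1 (1.23) and vehicle rat 2 (1.07).

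The deposited signals had been scaled so that the mean signal was 330 to 332 on every array, but the median signal was 92 to 96 on RG3487 arrays and 85 to 93 on vehicle arrays, and the median log2 difference of all genes was 0.09. Other scalings moved this median to 0.02 (quantile normalization or centring on the array median) or to 0.29 (scaling to 18 probe sets for bacterial and phage spike-in transcripts, which assumes equal amounts added to every sample). The mean log2 signal of those 18 was 9.67 to 9.74 on RG3487 arrays and 9.85 to 9.94 on vehicle arrays. Serpina6, Hsd11b1, Cyp17a1, Tat and Tsc22d3 were lower under all 4 scalings. With spike-in scaling the log2 differences were -0.94 for Serpina6, -0.37 for Hsd11b1, -1.56 for Cyp17a1, -0.49 for Tat and -0.40 for Tsc22d3. The sign of Nr3c1 1368221_at turned to 0.08 with spike-in scaling, that of Nr3c1 1368222_at to -0.03 with centring, and Fkbp5 1380611_at stood at -0.00 with quantile normalization and at 0.30 with spike-in scaling.

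**Figure D3:**
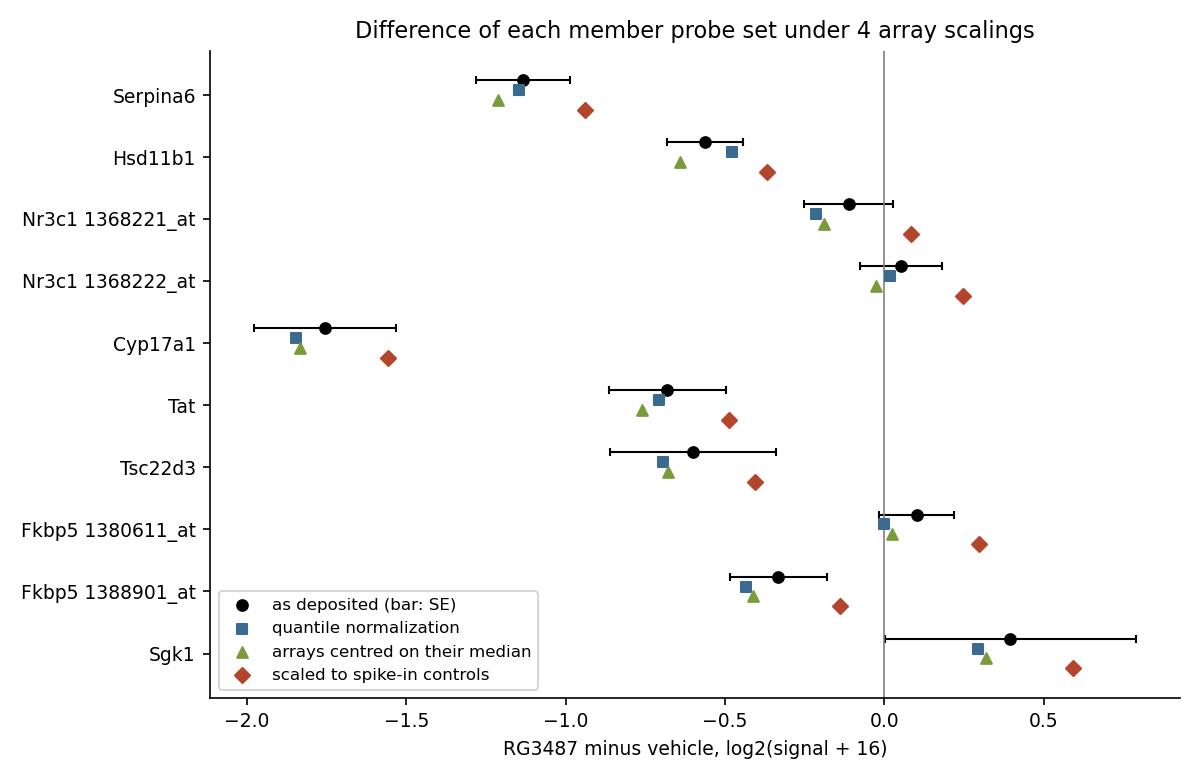
Difference of RG3487 minus vehicle on the log2(signal + 16) scale (x axis) for each probe set (rows) as deposited, with its SE, and after 3 other array scalings. Cyp17a1 is farthest left under each, from -1.85 to -1.56, and the 2 Nr3c1 and 2 Fkbp5 probe sets lie nearer to 0.

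The neighbouring genes of the pathway were taken from lists written by known role, with earlier results of these arrays known. In the list of corticosteroid metabolism, 11 of 18 genes were measured. Of these, 1 was higher (against 22.3% of all genes), 3 were lower (against 7.40%) and 7 did not pass. The higher one was Akr1d1, the 5-beta-reductase that inactivates glucocorticoids and also serves bile acid synthesis, with a mean signal of 4261 ± 497 in RG3487 livers and 3251 ± 231 in vehicle livers (SD, n = 5 each; log2 difference 0.38 ± 0.08 SE, adjusted p = 0.00464). The 3 lower ones were Cyp3a9, Cyp3a18 and Cyp3a2, of the cytochrome P450 family that hydroxylates steroids. Cyp3a9 averaged 1250 ± 451 in RG3487 livers and 2075 ± 417 in vehicle livers (log2 difference -0.77 ± 0.21, adjusted p = 0.0161). Cyp3a18 (-0.22 ± 0.06, adjusted p = 0.0229) and Cyp3a2 (-0.17 ± 0.05, adjusted p = 0.0308) lost the threshold under other scalings: quantile normalization gave an adjusted p of 0.345 for Cyp3a18 and 0.858 for Cyp3a2, and spike-in scaling gave 0.719 for Cyp3a18 and 0.717 for Cyp3a2, with Cyp3a2 turned to 0.02. With spike-in scaling the list stood at 5 higher and 1 lower. The Cyp3a genes are close relatives, and whether each probe set reads 1 of them alone was not tested.

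Around Cyp17a1, 7 of 20 genes of steroid hormone synthesis were measured. Of these, 1 was higher (against 22.3% of all genes), 0 were lower (against 7.40%) and 6 did not pass. The adrenal and gonadal genes of the list, among them Star, Cyp11a1, Cyp11b1 and Cyp21a1, were not among the measured 7. The higher gene was Hsd17b2, which oxidises oestradiol and testosterone to less active steroids. Its signal was 2679, 4657, 2327, 3857 and 3779 in RG3487 rats 1 to 5, against 831, 1397, 1443, 881 and 1390 in vehicle rats 1 to 5. The groups did not overlap (log2 difference 1.52 ± 0.21 SE, adjusted p = 0.00044), so this steroid enzyme gene was higher where Cyp17a1 was lower. The median difference of the 7 was 0.01, and the count of higher genes was 3 with quantile normalization and 4 with spike-in scaling.

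Around the receptor, 25 of 32 genes for its chaperones and transcriptional cofactors were measured. Of these, 9 were higher (against 22.3% of all genes), 0 were lower (against 7.40%) and 16 did not pass. The median log2 difference of the 25 was 0.17 against 0.09 for all genes. Stip1, the adaptor that hands the receptor from HSP70 to HSP90, averaged 623 ± 89.7 in RG3487 livers and 404 ± 55.4 in vehicle livers (SD, n = 5 each; log2 difference 0.60 ± 0.11 SE, adjusted p = 0.00202). Ppid, an immunophilin of the receptor complex, was higher by 0.51 ± 0.11 (adjusted p = 0.00484), Fkbp4, the immunophilin that replaces FKBP5 on the hormone-bound receptor, by 0.35 ± 0.08 (adjusted p = 0.00814) and Dnaja1, an HSP40, by 0.34 ± 0.06 (adjusted p = 0.002). Hsp90ab1, which encodes an HSP90, was higher by 0.28 ± 0.06 (adjusted p = 0.00774) and Smarca4, a chromatin remodelling ATPase, by 0.45 ± 0.10 (adjusted p = 0.00713). These chaperones serve many proteins beside the receptor. The count was 19 higher and 0 lower with spike-in scaling and 7 higher and 1 lower with quantile normalization or centring.

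Of 48 further genes that glucocorticoids are known to induce, mostly in liver, 38 were measured. Of these, 16 were lower with RG3487 (against 7.40% of all genes), 1 was higher (against 22.3%) and 21 did not pass. The median log2 difference of the list was -0.26, against 0.09 for all genes. Agt, which encodes angiotensinogen, had signals of 1938, 1766, 1951, 1699 and 1858 in RG3487 rats 1 to 5, against 2952, 3166, 2800, 2955 and 3205 in vehicle rats 1 to 5 (log2 difference -0.71 ± 0.06 SE, adjusted p = 1.46e-05). The groups were far apart and each was tight. Angptl4, a lipase inhibitor, averaged 457 ± 116 in RG3487 livers and 1422 ± 309 in vehicle livers (-1.62 ± 0.19, adjusted p = 0.000212), and Pdk4, a kinase that restrains glucose oxidation, averaged 341 ± 137 in RG3487 livers and 1073 ± 364 in vehicle livers (-1.64 ± 0.31, adjusted p = 0.00254). Lpin1, a phosphatidate phosphatase and coactivator, differed by -0.93 ± 0.15 (adjusted p = 0.00122) and Gpt, alanine aminotransferase, by -0.94 ± 0.19 (adjusted p = 0.0037). Of the other 11 lower genes, named after their values were seen, Igfbp1, a binding protein for insulin-like growth factors, had the most negative difference (-2.10 ± 0.53, adjusted p = 0.0127), and the amino acid enzyme genes Sds (-1.15 ± 0.30, adjusted p = 0.0149) and Got1 (-0.93 ± 0.23, adjusted p = 0.0106) were lower as well. The groups overlapped for Igfbp1 (168 to 1376 in RG3487 livers, 871 to 4616 in vehicle livers), and also for Sds, Got1 and Gpt. They did not overlap for Angptl4, Pdk4 and Lpin1. Irs2, also among the 16, read 59, 45, 52, 27 and 18 in RG3487 rats 1 to 5, against 128, 126, 81, 102 and 59 in vehicle rats 1 to 5. Its mean RG3487 signal of 40.2 was no higher than the filter's floor of 40.2. Irs2 thus passed the filter only through the vehicle rats and had to differ to be counted. Many genes of the list also answer to fasting and to other receptors.

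The 1 that was higher was Per2, a clock gene and a relative of Per1, which had signals of 63, 145, 92, 137 and 150 in RG3487 rats 1 to 5, against 17, 41, 28, 22 and 36 in vehicle rats 1 to 5 (log2 difference 1.55 ± 0.21 SE, adjusted p = 0.000466). All RG3487 rats lay above all vehicle rats, but the mean vehicle signal of 28.8 was under the filter's floor of 40.2, so Per2 passed the filter only through the RG3487 rats and had to differ to be counted. Under a filter that drops the dimmest 50%, Per2 was not tested and the list held 0 higher genes. With spike-in scaling the list held 12 lower and 6 higher genes, with quantile normalization 14 lower and 2 higher, and with centring 21 lower and 1 higher. Vehicle rat 1, high for Tat and Tsc22d3, was the highest of its group in 17 of 38 genes (44.7%), against 24.3% of all genes, and vehicle rat 5 the lowest in 15 of 38 (39.5%), against 29.0% of all genes. Among RG3487 rats, rat 3 was the highest in 14 of 38 (36.8%), against 19.5% of all genes, and rat 4 the lowest in 13 of 38 (34.2%), against 16.8% of all genes. The median deviation of vehicle rat 1 over the list was nevertheless near 0 (8.15e-05).

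**Figure D4:**
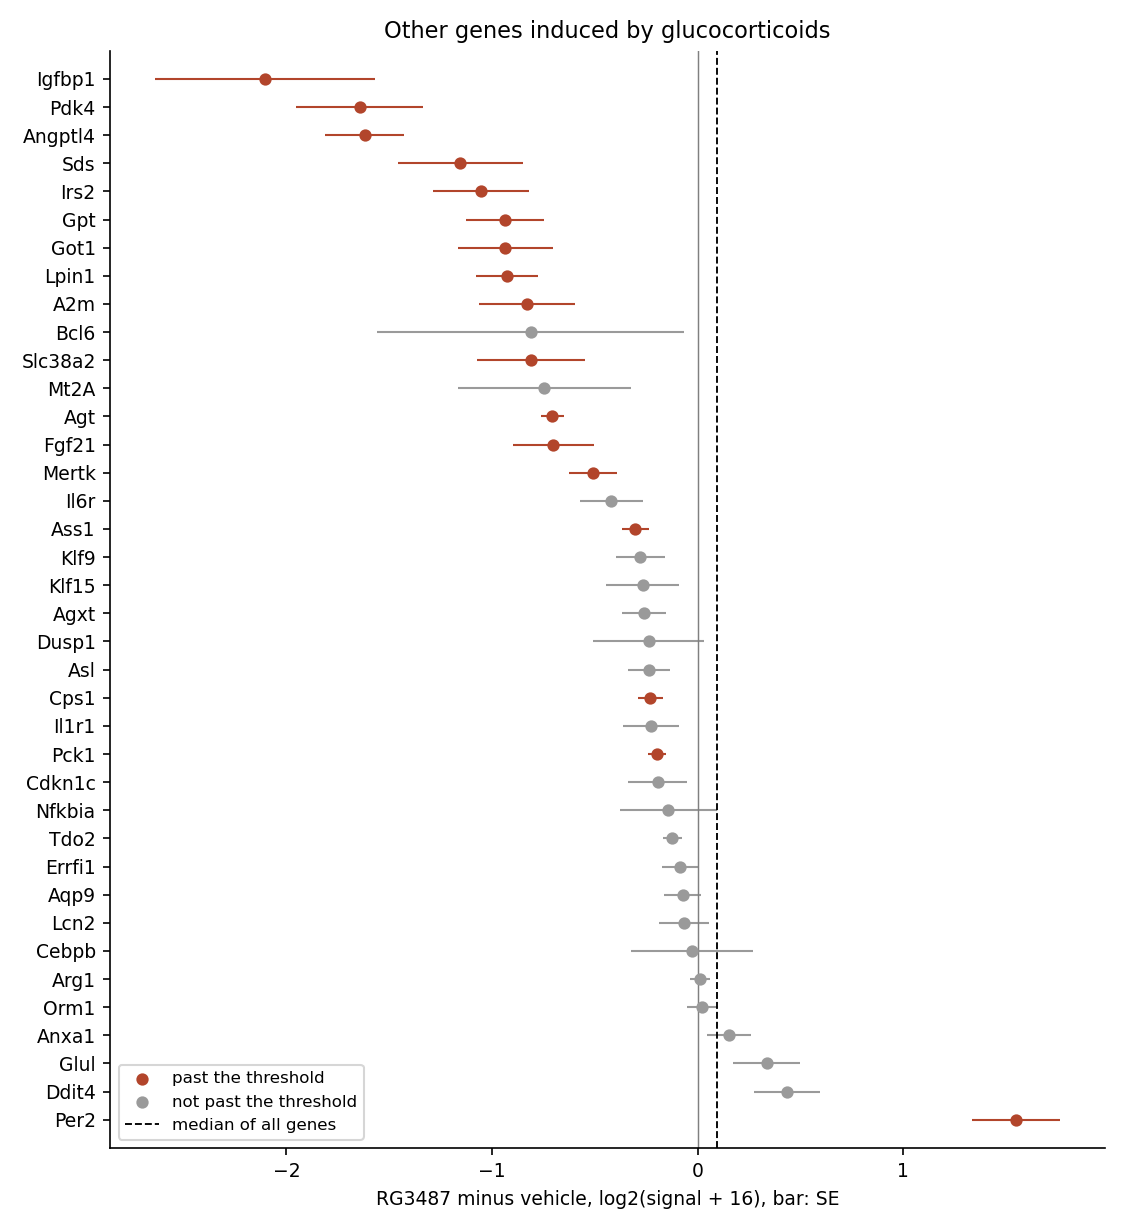
Difference of RG3487 minus vehicle on the log2(signal + 16) scale, with its SE, for the 38 measured genes of the list, sorted; red points passed the threshold and grey points did not, and the dashed line is the median of all genes (0.09). The 16 lower genes fill most of the upper part, and Per2 is alone on the far right.

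Of 15 genes that glucocorticoids repress, mostly of inflammation, 6 were measured. In limma's fit 0 of them passed as higher (against 22.3% of all genes) and 0 as lower (against 7.40%). Cxcl1, Cxcl10 and Il1b lay near the filter's floor of 40.2. Their mean signals were 50.2, 45 and 50.8 in RG3487 livers and 39.4, 41 and 40.8 in vehicle livers. Whether these dim signals exceed background is unknown, so the counts of 0 say little about them. The pair with the smallest p were Irf1, an interferon-response factor (-0.28 ± 0.13 SE, adjusted p = 0.115), and Icam1, an adhesion molecule (0.19 ± 0.13, adjusted p = 0.315). Irf1 passed with quantile normalization (adjusted p = 0.0463) and without RG3487 rat 1 (0.0322), and Icam1 with spike-in scaling (0.028).

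Among relatives of the described genes, of 11 measured, 2 were higher (Per2 and Fkbp4, above), 2 were lower and 7 did not pass, against 22.3% higher and 7.40% lower of all genes. With spike-in scaling 5 were higher and 1 was lower. Both lower genes are relatives of Serpina6. Serpina4, another plasma serpin gene, averaged 3299 ± 105 in RG3487 livers and 4950 ± 261 in vehicle livers (SD, n = 5 each; log2 difference -0.58 ± 0.05 SE, adjusted p = 1.61e-05). Serpina1, the antitrypsin gene, differed by -0.14 ± 0.05 (adjusted p = 0.0425), but its sign turned with quantile normalization (0.02) and spike-in scaling (0.06), and it lost the threshold when any array except that of RG3487 rat 3 was left out. Serpina7, the thyroxine-binding globulin gene, averaged 91 ± 29.7 in RG3487 livers and 179 ± 85.8 in vehicle livers. It did not pass as deposited (-0.78 ± 0.30, adjusted p = 0.0733), and Serpina10 differed by 0.02 ± 0.04 (adjusted p = 0.792). The list still held 2 lower genes without vehicle rat 5 and with the rat number as a block. Serpina1 lost the threshold in both settings, so a further relative passed there as lower.

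Markers of liver cell types were read beside these values. Of 7 hepatocyte markers measured, 1 was higher (Hnf4a, 0.29 ± 0.06 SE) and 4 were lower, and their summed signal was 38020 to 44434 in RG3487 livers and 44574 to 47910 in vehicle livers. Of 8 Kupffer cell markers, 0 were higher and 2 lower, with sums of 2785 to 3516 in RG3487 livers and 3338 to 4114 in vehicle livers. Of 6 endothelial markers, 0 were higher and 2 lower, with sums of 2584 to 3046 in RG3487 livers and 3087 to 3520 in vehicle livers. Of 6 stellate cell markers 1 was higher and 1 lower, with sums of 1544 to 1737 in RG3487 livers and 1403 to 1812 in vehicle livers. Of the bile duct, white blood cell and red blood cell markers, only 1, 1 and 2 were measured. In each of these lists 0 were higher and 0 lower. No measured marker was at 0. Of all genes, 7.40% were past the threshold as lower and 22.3% as higher. As deposited, the hepatocyte and endothelial sums thus did not overlap between groups, but the gaps were narrow (44434 against 44574, and 3046 against 3087). The sums were taken from deposited signals only, and the hepatocyte marker Serpina1 turned its sign with quantile normalization and with spike-in scaling. The part of these sums in the differences of Serpina6, Hsd11b1 and Cyp17a1 was not tested.

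The genes most like 3 of the described genes were sought by Pearson's r of the deviations from the group means over the 10 animals, a description across 7727 genes that share the same arrays. Those nearest to Serpina6 were Cept1 (r = 0.948), Pgrmc2 (0.920) and Zfyve9 (0.906), those nearest to Nr3c1 were Gpsm2 (0.964), Auh (0.951) and S100a16 (0.940), and those nearest to Fkbp5 1388901_at were St7l (0.961), Nktr (0.921) and Zdhhc7 (0.913). None of the 8 genes was among the 3 nearest of these. Each r is among the highest of 7727 genes over only 10 animals. Whether it exceeds what unlinked genes would give was not tested.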

How the data were processed

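The authors deposited 1 signal intensity per probe set and array, in whole numbers on a linear scale; MAS5 is named in the submitters' processing notes, with no version. The table held 15899 probe sets, 40 of them controls. Of the others, 12562 had 1 gene symbol in the platform annotation, 332 several and 2965 none; symbols were updated through RefSeq (1 changed).

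Signals were analysed as log2(signal + 16). Controls were dropped, as was the dimmest 25% of probe sets by mean log2 signal, and 11894 remained. Groups were compared with limma 3.58.1 in R 4.3.3 (lmFit, eBayes with trend), two-sided, with Benjamini-Hochberg adjustment over all retained probe sets and a threshold of 0.05. Where several probe sets of a listed gene remained, the brightest stood for it. Arrays have no read depth. The 5 arrays per group limit the precision. Each p-value sets the group difference against the spread between animals within groups, moderated across probe sets by limma. The code was tested on simulated data.

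The genes and lists were chosen with earlier results of these data known. Up to 6 genes past the threshold with the smallest p were named per list, or 2 where none passed. Tat, Tsc22d3 and Sgk1 were picked for their printed promoters after their values were seen. Alternatives changed the pseudocount (1 or 64), scaling, filter, variance model, replicate block and probe set, and left out each array. The rat numbers are within-group counts of different animals; deviations of same-numbered rats correlated between -0.04 and 0.17, so they were not paired.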

Additional observations from a re-analysis of the deposited data

Results flagged for a closer look

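Each group of 5 signals was checked for a single value far from the rest, by the ratio of its gap to the group's range against Dixon's critical value of 0.71. Chance gives such a value in about 1 group in 20. Of 62 groups (31 probe sets), 7 held one. For Tat, RG3487 rat 3 (1830, next 1267; ratio 0.789) and vehicle rat 1 (3469, next 1918; ratio 0.923) stood high. Vehicle rat 1 also stood high for Tsc22d3 (1014, next 418; ratio 0.845), and vehicle rat 2 for Sgk1 (616, next 318; ratio 0.729). Among the listed genes, vehicle rat 5 was high for Cyp3a2 (6283, next 5727; ratio 0.717), vehicle rat 3 low for Gpt (1033, next 1752; ratio 0.771) and RG3487 rat 5 low for Serpina1 (7097, next 7958; ratio 0.734).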

How the results depend on the processing

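Serpina6, Hsd11b1, Cyp17a1 and Tat kept their sign and their side of the threshold under all 20 alternatives, and no member probe set moved by more than its within-group SD. The counts over all probe sets depended on the scaling: 2443 were higher and 852 lower as deposited, 1423 and 1193 with quantile normalization, 1359 and 1335 with centring, and 6683 and 354 with spike-in scaling. Of the genes induced by glucocorticoids, 1 was higher as deposited, 2 with quantile normalization, 6 with spike-in scaling, 0 with the dimmest 50% left out, 2 with the replicate block and 1 to 2 when each array was left out (2 without vehicle rat 1 or 2), while the lower count was 12 to 21 over all alternatives. Cyp3a2 turned to 0.0228 with spike-in scaling and Serpina1 to 0.0172 with quantile normalization and 0.0551 with spike-in scaling. The cause was not tested. Cyp3a2 lost the threshold without RG3487 rat 4 or 5 or vehicle rat 4 or 5, Cyp3a18 without RG3487 rat 2 or vehicle rat 4 or 5, and Serpina1 without any array except that of RG3487 rat 3. Cyp3a2 also lost it with eBayes without trend (adjusted p = 0.0712). The count of lower relatives of the described genes fell from 2 to 1 with eBayes without trend and with no filter. With the replicate block 2098 probe sets were higher and 820 lower; of the named genes, it ended the calls of Cyp3a2 (adjusted p = 0.0834) and Serpina1 (0.104) and gave one for Irf1 (0.0434) and, as lower, for Fkbp5 1388901_at, which also passed without vehicle rat 5. Fkbp5 1380611_at passed as higher with spike-in scaling. Detection calls were not used here, so whether dim signals such as that of Nr3c1 1368222_at exceed background is unknown.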
